A study of Homo sapiens with 4 samples.

Results

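The hypoxia response genes outside glycolysis are 39 human genes of the pathway through which cells sense low oxygen, 10 of them subunits and regulators of the hypoxia-inducible factors (HIF) and 29 of them targets. They were listed by name and role. No measured value was part of the rule, but the list was drawn up with earlier results of these data known. Each was represented by its brightest probe set annotated to that gene alone, and 36 of the 39 had such a probe set, among 18417 genes measured in this way on the arrays. These 36 comprised 9 subunits and regulators and 27 targets. The probe set of EGLN2 was annotated to several genes and was not used, and CA9 and NDUFA4L2 were not analysed here.

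RNA of 2 human prostate cancer cell lines was measured on 4 arrays, 2 for each line. PC-3 is the parental line, first grown from a prostate tumour that had spread to bone, and is labelled as poorly metastatic. PC-3-BM is labelled as highly metastatic and was recovered by the study from bone of nude mice after repeated intracardiac injection of PC-3 cells, then grown in culture and selected by flow sorting on their fluorescent label. Both lines carry luciferase and green fluorescent protein, and PC-3-BM is 1 selected derivative, called a clone in the methods, so bone selection and properties of that clone cannot be told apart. The labels describe growth in mice whereas the methods describe culture in air with added carbon dioxide, and no oxygen level at harvest was given in the sources used here. Nothing states that the 2 arrays of a line came from separate cultures, so p-values reflect the spread between arrays alone, and that spread may be technical. In bulk RNA, a change in the share of cells that express a gene and a change in the RNA per cell cannot be told apart.

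HIF is a pair of proteins, an oxygen-labile alpha subunit (HIF1A, EPAS1 or HIF3A) and a stable partner (ARNT or ARNT2). In oxygen, prolyl hydroxylases of the EGLN family mark the alpha subunit, the VHL ubiquitin ligase then has it degraded, and HIF1AN blocks its coactivator contact. Without oxygen the pair accumulates and binds the hypoxia response element, whose core letters are ACGTG or GCGTG, near genes for pH control, secreted hormones, mitochondrial turnover, collagen maturation, chromatin and lipid storage. This control acts largely on the protein, which arrays do not measure.

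The core letters ACGTG were searched in promoter windows of 250 bases before to 50 bases after the start site (RefSeq, GRCh38.p14), on both strands. The 7 stretches below are shown because their genes include 4 targets that were higher in PC-3-BM (BNIP3, DDIT4, ERO1A and FAM162A) and 3 that were not past the test (P4HA1, PLOD2 and KDM4C). Each runs 5′ to 3′ along the gene, from 30 bases before the first match to 30 bases after the last or to the start site. Capitals mark ACGTG or its reverse complement CACGT, and where both overlap they read CACGTG, which is also the E-box bound by BHLHE40, BHLHE41 and MXI1.
BNIP3 (chr10:131982022-131982087, minus strand): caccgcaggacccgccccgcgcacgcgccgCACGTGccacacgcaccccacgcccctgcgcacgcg
DDIT4 (chr10:72273769-72273833, plus strand): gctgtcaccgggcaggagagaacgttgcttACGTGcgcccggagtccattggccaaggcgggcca
ERO1A (chr14:52695638-52695702, minus strand): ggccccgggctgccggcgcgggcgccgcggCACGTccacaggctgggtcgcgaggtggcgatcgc
FAM162A (chr3:122384068-122384132, plus strand): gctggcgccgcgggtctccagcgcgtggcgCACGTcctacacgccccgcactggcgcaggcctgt
P4HA1 (chr10:73096918-73096982, minus strand): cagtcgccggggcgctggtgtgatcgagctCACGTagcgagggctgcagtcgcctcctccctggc
PLOD2 (chr3:146161296-146161414, minus strand): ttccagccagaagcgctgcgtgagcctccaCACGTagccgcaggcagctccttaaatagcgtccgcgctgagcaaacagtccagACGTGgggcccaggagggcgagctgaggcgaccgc
KDM4C (chr9:6757880-6757972, plus strand): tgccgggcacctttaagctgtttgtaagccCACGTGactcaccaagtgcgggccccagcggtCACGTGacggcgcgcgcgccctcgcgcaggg

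RefSeq windows were matched for 31 of the 39 genes and gave 38 windows, since some genes have several start sites. ACGTG stood in 17 of the 38 windows (44.7%), against 21.4% of all 35116 windows and 23.2% of the windows of measured genes. The other core form, GCGTG, stood in 19 of the 38 (50%), against 36.5% of all windows and 43.3% of the windows of measured genes. The E-box CACGTG stood in 9 of the 38 (23.7%) and in 7.26% of all windows. Its share in the windows of measured genes was not counted. Since CACGTG contains ACGTG, these 9 windows are among the 17 with ACGTG. The 38 windows were also richer in G and C, with a median of 68.7% against 58.7% in all windows and 62.7% in those of measured genes. ACGTG stood in 8 of 16 windows of targets that were higher in PC-3-BM and in 6 of 9 windows of measured targets that were not. GCGTG stood in 12 of the same 16 windows and in 4 of the same 9. Those 16 windows belong to 13 of the 18 targets that rose, since STC1, NDRG1, BNIP3L, ZNF395 and HILPDA had no window. The other 9 windows belong to 9 genes. MXI1 and KDM3A gave more than 1 window each, and those of KDM3A overlap and share the same GCGTG. Among measured subunits and regulators ACGTG stood in 1 of 10 windows, that of EGLN1, and it also stood in 1 of the 2 windows of EGLN2. A match is a run of letters and not a measured binding site.

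Most of the targets were higher in PC-3-BM. At an adjusted p below 0.05 in limma, taken over all 33297 probe sets, 18 of the 27 measured targets rose and 1 fell. With 1 probe set per gene, the same rule called 29.6% of all genes, 14.8% higher and 14.8% lower. The median difference of the targets, PC-3-BM minus PC-3, was 0.53 on the log2 scale, on which a difference of 1 is a 2-fold change, and that of all genes was −0.04. In 22 of the 27 targets both PC-3-BM arrays lay above both PC-3 arrays, as they did in 30.9% of all genes, and in 2 they lay below, as in 39.8% of all genes. DDIT4, STC1, BNIP3, BHLHE41 and ADM were the 5 targets that rose more than 2-fold, as 2.32% of all genes did. None of the 36 measured genes passed the thresholds of the study's methods, an adjusted p below 0.001 together with a log2 change of more than 2 in either direction. In the fit used here 15 of 18417 genes or 0.0814% passed them, fewer than the paper listed. Why the counts differ was not tested. The lowest adjusted p among the 36 genes was 0.00114 (STC1) and the largest difference 1.98 (DDIT4).

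**Figure D1:**
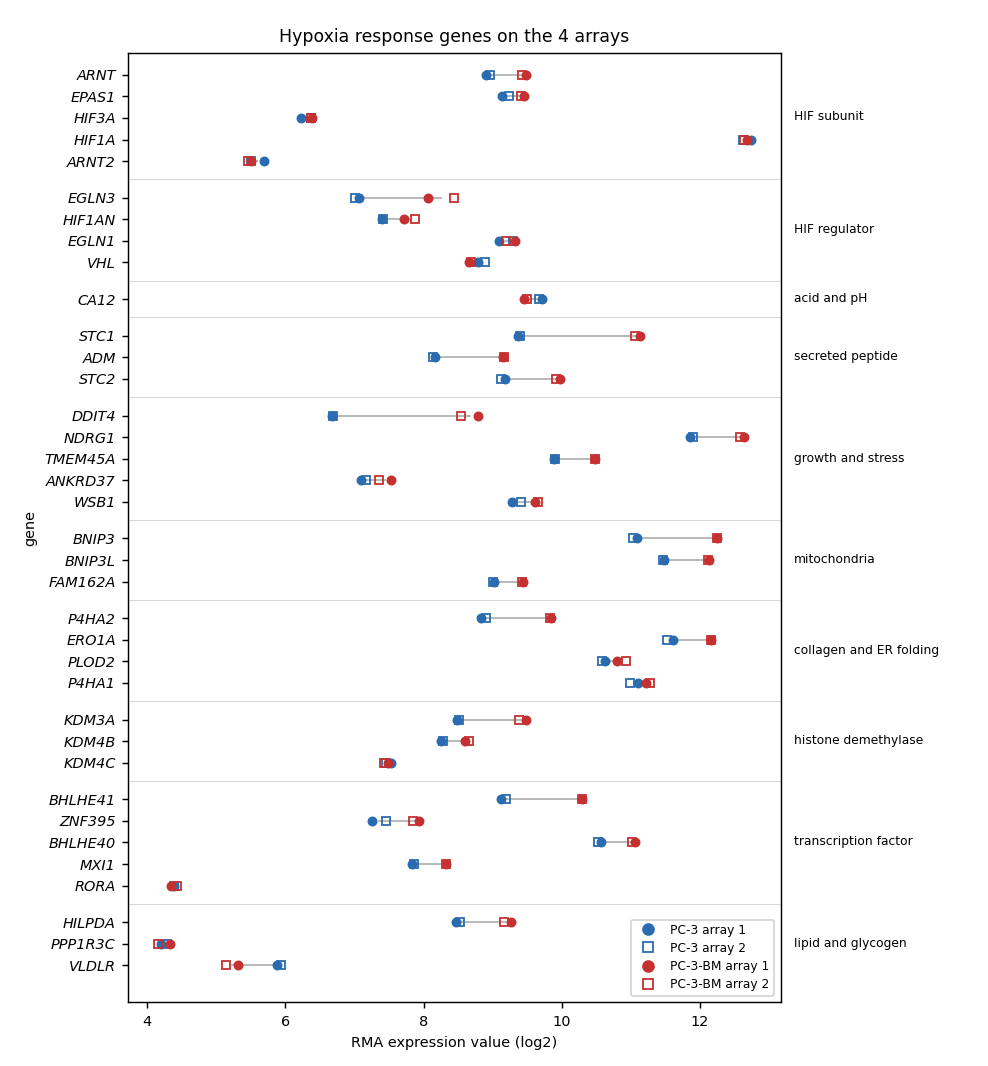
RMA expression (log2, horizontal axis) of the 36 measured genes (vertical axis), grouped by role. Blue marks are PC-3 arrays, red marks PC-3-BM arrays, circles array 1, squares array 2, and grey lines join the line means. The red marks of STC1 lie at 11.13 and 11.06 and its blue marks at 9.37 and 9.39, whereas the 4 marks of HIF1A lie between 12.63 and 12.74.

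The alpha subunits differed little between the lines. HIF1A, the broadly expressed alpha subunit, had log2 values of 12.74 and 12.63 on the PC-3 arrays and 12.68 and 12.65 on the PC-3-BM arrays. The arrays of the lines overlapped, and the difference of −0.02 had a 95% interval from −0.22 to 0.17 (limma, adjusted p = 0.858). This interval leaves room for a fold of 0.859 to 1.13. EPAS1, the alpha subunit known from endothelium and kidney cancer, had 9.14 and 9.23 in PC-3 and 9.45 and 9.41 in PC-3-BM. Both PC-3-BM arrays lay above both PC-3 arrays, but the difference of 0.25 (95% interval 0.06 to 0.44) did not pass the test (limma, adjusted p = 0.0757). HIF3A, whose short forms can restrain the others, differed by 0.07 (95% interval −0.14 to 0.28).

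Of the partners, ARNT rose and ARNT2 did not pass the test. ARNT, which pairs with every alpha subunit and with the dioxin receptor, had 8.90 and 8.96 in PC-3 and 9.48 and 9.42 in PC-3-BM. The lines did not overlap, and ARNT rose 1.44-fold (log2 difference 0.52, SE 0.07, limma, adjusted p = 0.00978). Its adjusted p was 0.0674 without PC-3 array 1, 0.0590 without PC-3 array 2 and 0.0566 without PC-3-BM array 1. The neuronal partner ARNT2 was at 5.60 ± 0.13 in PC-3 and 5.48 ± 0.04 in PC-3-BM (SD, n = 2), and differed by −0.11 (95% interval −0.35 to 0.12).

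Of the oxygen sensors and brakes of HIF, EGLN3 and HIF1AN rose. EGLN3 is the prolyl hydroxylase that HIF itself strongly induces. Its values were 7.06 and 7.00 on the PC-3 arrays and 8.07 and 8.44 on the PC-3-BM arrays. Both PC-3-BM arrays stood clear of PC-3 and spread wider, with an SD of 0.26 against 0.04. EGLN3 rose 2.33-fold (log2 difference 1.22, SE 0.14, limma, adjusted p = 0.00606), with an adjusted p of 0.0506 without PC-3 array 1 and 0.0555 without PC-3 array 2. EGLN1, the main oxygen sensor of most cells, had overlapping values of 9.09 and 9.30 in PC-3 and 9.32 and 9.20 in PC-3-BM. Its difference of 0.07 had a 95% interval from −0.19 to 0.33, which lay below the interval of EGLN3, 0.87 to 1.58, although the difference between the genes was not tested. HIF1AN, the asparagine hydroxylase that keeps coactivators off HIF, rose 1.30-fold, from 7.41 and 7.42 to 7.72 and 7.87 (log2 difference 0.38, SE 0.08, limma, adjusted p = 0.0336). That call was lost without any 1 of the 4 arrays, with adjusted p between 0.0598 without PC-3-BM array 1 and 0.142 without PC-3 array 1. VHL, the recognition subunit of the ligase, was lower on both PC-3-BM arrays, 8.65 and 8.68 against 8.79 and 8.89, by a difference of −0.17 that did not pass (95% interval −0.36 to 0.02, limma, adjusted p = 0.173). In all, 3 of 9 measured subunits and regulators rose and 0 fell at an adjusted p below 0.05 in limma, against 14.8% of all genes in each direction. At an unadjusted p below 0.05, 4 were higher and 0 lower, against 20.3% and 23.2% of all genes. Their median difference was 0.07.

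The 3 secreted peptides all rose, against 14.8% of all genes called higher. STC1 and STC2 encode the stanniocalcins, glycoprotein hormones first known for calcium and phosphate control in fish. STC1 had 9.37 and 9.39 on the PC-3 arrays and 11.13 and 11.06 on the PC-3-BM arrays. It stood among the highest gains, at rank 127 of 33297 probe sets, and rose 3.28-fold (log2 difference 1.71, SE 0.07, limma, adjusted p = 0.00114). STC2 went from 9.17 and 9.12 to 9.97 and 9.92 and rose 1.74-fold (log2 difference 0.80, SE 0.07, limma, adjusted p = 0.00385). ADM, which encodes the vasodilator adrenomedullin, had 8.16 and 8.14 in PC-3 and 9.15 and 9.16 in PC-3-BM. Both PC-3-BM arrays lay above both PC-3 arrays, and ADM rose 2.01-fold (log2 difference 1.01, SE 0.07, limma, adjusted p = 0.00236).

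Growth and stress genes rose in 3 of 5, against 14.8% of all genes called higher, and were led by DDIT4. This gene encodes REDD1, which restrains the growth kinase mTOR when oxygen or energy is short. DDIT4 had 6.68 and 6.70 on the PC-3 arrays and 8.79 and 8.54 on the PC-3-BM arrays. It had the largest difference of the 36 genes, 3.94-fold (log2 difference 1.98, SE 0.11, limma, adjusted p = 0.00160), at rank 72 of 33297. NDRG1, a stress gene also known as a suppressor of metastasis, rose 1.66-fold from 11.85 and 11.90 to 12.64 and 12.57 (log2 difference 0.73, SE 0.07, limma, adjusted p = 0.00470). TMEM45A, a transmembrane protein gene, rose 1.50-fold from 9.90 ± 0.01 to 10.48 ± 0.00 (SD, n = 2, limma, adjusted p = 0.00646), with an adjusted p of 0.0523 and 0.0521 without PC-3 array 1 or 2. ANKRD37, an ankyrin repeat gene, and WSB1, a ubiquitin ligase subunit, were higher on both PC-3-BM arrays, by 0.31 (95% interval 0.08 to 0.54) and 0.28 (0.08 to 0.49), and did not pass (limma, adjusted p = 0.0657 and 0.0643).

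All 3 measured mitochondrial genes rose, against 14.8% of all genes called higher. BNIP3 and BNIP3L sit in the outer mitochondrial membrane and recruit the autophagy machinery that removes mitochondria. BNIP3 had 11.09 and 11.03 in PC-3 and 12.25 on both PC-3-BM arrays. The lines did not overlap, and BNIP3 rose 2.28-fold (log2 difference 1.19, SE 0.07, limma, adjusted p = 0.00183). BNIP3L went from 11.48 and 11.47 to 12.13 and 12.12 and rose 1.57-fold (log2 difference 0.65, SE 0.07, limma, adjusted p = 0.00501). FAM162A, a mitochondrial protein linked to cell death in hypoxia, rose 1.34-fold from 9.02 and 9.01 to 9.44 and 9.43 (log2 difference 0.42, SE 0.07, limma, adjusted p = 0.0140). Its call was lost without any 1 array, with adjusted p from 0.0615 without PC-3-BM array 2 to 0.0837 without PC-3 array 2.

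All 4 genes of collagen maturation and protein folding were higher on both PC-3-BM arrays, as were 30.9% of all genes. Of these 4, P4HA2 and ERO1A passed the test, and 14.8% of all genes passed it upward. P4HA2, a catalytic subunit of collagen prolyl 4-hydroxylase, had 8.83 and 8.91 in PC-3 and 9.84 and 9.82 in PC-3-BM, and rose 1.95-fold (log2 difference 0.96, SE 0.07, limma, adjusted p = 0.00275). Its paralogue P4HA1 had 11.11 and 10.99 in PC-3 and 11.21 and 11.28 in PC-3-BM. That difference of 0.20 did not pass (95% interval −0.01 to 0.41, limma, adjusted p = 0.148), and its interval lay below that of P4HA2, 0.78 to 1.15, with no test between the genes. PLOD2, the lysyl hydroxylase that hardens collagen cross-links, was 0.26 higher (95% interval 0.06 to 0.47, limma, adjusted p = 0.0790). ERO1A, the oxidase that drives disulfide formation in the endoplasmic reticulum, rose 1.50-fold from 11.62 and 11.52 to 12.15 and 12.16 (log2 difference 0.59, SE 0.07, limma, adjusted p = 0.00786), with an adjusted p of 0.0584 without PC-3 array 2.

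Among the histone demethylases, KDM3A and KDM4B rose. KDM3A, which removes methyl groups from lysine 9 of histone H3, had 8.48 and 8.52 in PC-3 and 9.48 and 9.38 in PC-3-BM and rose 1.91-fold (log2 difference 0.93, SE 0.07, limma, adjusted p = 0.00322). KDM4B rose 1.29-fold, from 8.25 and 8.28 to 8.61 and 8.66 (log2 difference 0.37, SE 0.07, limma, adjusted p = 0.0226). KDM4B lost its call without any 1 array, with adjusted p from 0.0805 without PC-3-BM array 1 to 0.112 without PC-3 array 1. KDM4C had overlapping values, 7.53 and 7.46 against 7.49 and 7.43, and a difference of −0.03 (95% interval −0.22 to 0.16).

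Of the transcription factors 4 of 5 rose, against 14.8% of all genes called higher. BHLHE41 and BHLHE40 are repressors of the circadian clock. BHLHE41 had 9.12 and 9.19 in PC-3 and 10.29 on both PC-3-BM arrays, and rose 2.20-fold (log2 difference 1.14, SE 0.07, limma, adjusted p = 0.00199). BHLHE40 rose 1.40-fold from 10.56 and 10.53 to 11.06 and 11.01 (log2 difference 0.49, SE 0.07, limma, adjusted p = 0.0107). Its adjusted p was 0.0646, 0.0728 and 0.0597 without PC-3 array 1, PC-3 array 2 or PC-3-BM array 1. MXI1, an antagonist of MYC, rose 1.40-fold from 7.83 and 7.86 to 8.33 on both PC-3-BM arrays (log2 difference 0.49, SE 0.07, limma, adjusted p = 0.00999), and ZNF395, a zinc finger protein, rose 1.45-fold from 7.25 and 7.46 to 7.93 and 7.85 (log2 difference 0.53, SE 0.10, limma, adjusted p = 0.0209). Both lost their calls without any 1 array, with adjusted p from 0.0512 without PC-3-BM array 2 to 0.0674 without PC-3 array 1 for MXI1, and from 0.0517 without PC-3 array 2 to 0.0982 without PC-3-BM array 1 for ZNF395. The nuclear receptor RORA was at 4.38 ± 0.00 and 4.39 ± 0.07 (SD, n = 2), below the lower quartile of all values (5.02), with a difference of 0.01 (95% interval −0.18 to 0.20).

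Lipid and glycogen genes moved apart. HILPDA, which coats lipid droplets and inhibits their lipase, had 8.47 and 8.53 in PC-3 and 9.27 and 9.16 in PC-3-BM and rose 1.64-fold (log2 difference 0.71, SE 0.08, limma, adjusted p = 0.00554). VLDLR, the receptor that takes up triglyceride-rich lipoproteins, was the only target that fell. It had 5.88 and 5.94 in PC-3 and 5.31 and 5.14 in PC-3-BM, 1.61-fold lower (log2 difference −0.69, SE 0.09, limma, adjusted p = 0.00844), against 14.8% of all genes called lower. The line means, 5.91 and 5.22, lay not far above the lower quartile of all values, and the adjusted p was 0.0561 and 0.0652 without PC-3 array 1 or 2. PPP1R3C, a glycogen-targeting subunit of a phosphatase, was at 4.24 in both lines, below that quartile. The carbonic anhydrase CA12, which acidifies the cell surroundings, was lower on both PC-3-BM arrays, 9.45 and 9.50 against 9.71 and 9.67, by a difference of −0.21 that did not pass (95% interval −0.39 to −0.03, limma, adjusted p = 0.0942).

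**Figure D2:**
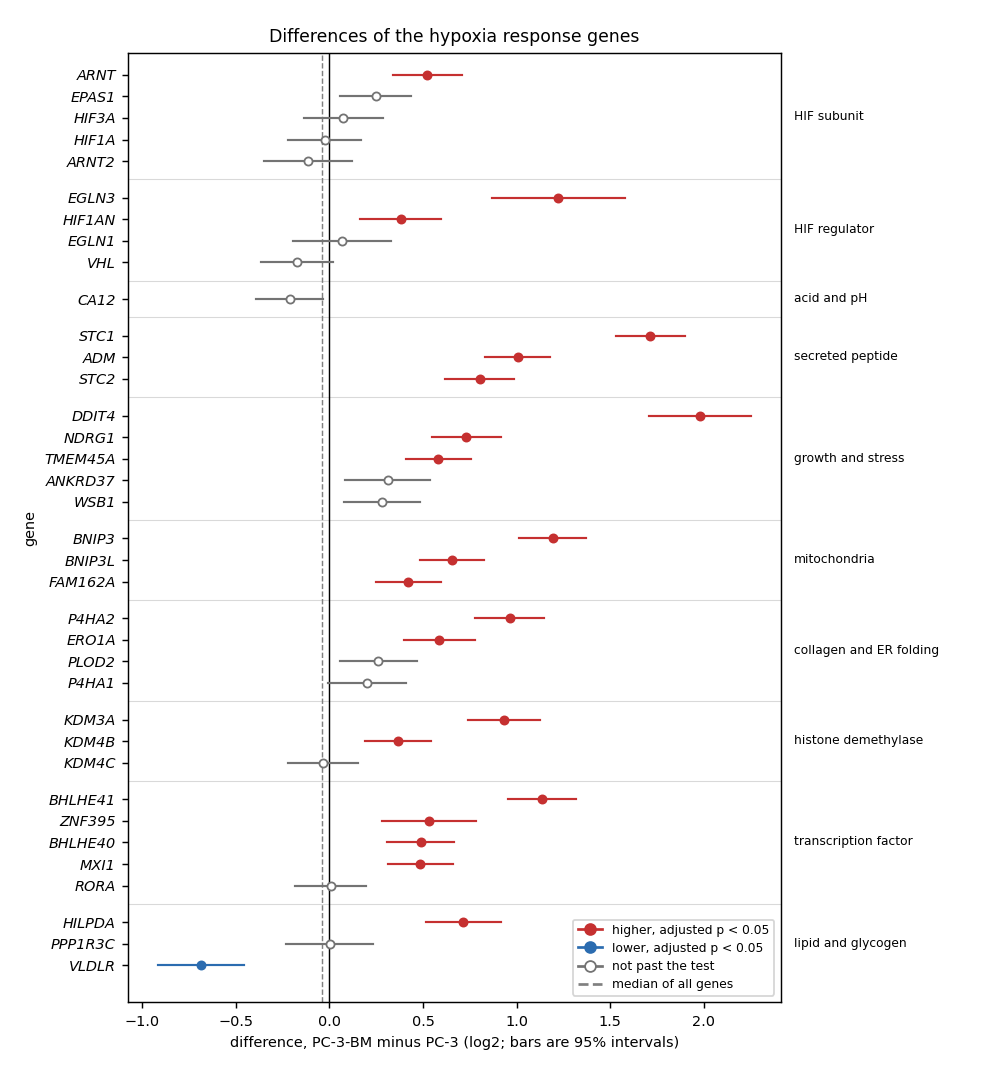
Differences PC-3-BM minus PC-3 (log2, horizontal axis) of the 36 measured genes (vertical axis), with 95% intervals as bars. Red points passed upward, the blue point passed downward, open grey points did not pass, and the dashed line is the median of all genes at −0.04. DDIT4 lies furthest right at 1.98 and VLDLR furthest left at −0.69.

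Of the 22 genes that passed, 11 kept an adjusted p below 0.05 without each of the 4 arrays in turn. These were STC1, DDIT4, BNIP3, BHLHE41, ADM, P4HA2, KDM3A, STC2, NDRG1, BNIP3L and HILPDA, and their adjusted p reached at most 0.0495. These are all targets, but only 3 of the 22 genes that passed were subunits or regulators. No contrast between the groups is drawn from this. The share of all called probe sets that kept their call in this way was not counted. By the same test, 12 of the 27 targets rose without PC-3 array 1, 11 without PC-3 array 2, 13 without PC-3-BM array 1 and 14 without PC-3-BM array 2. Calls in either direction over all probe sets were then 7.31%, 6.72%, 9.87% and 11.6%, in the same order.

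Genes that lie beside these on the chromosomes had median differences nearer to 0 in most cases. The 10 measured genes on each side of a member were taken in RefSeq order, except that VLDLR had 19 neighbours in all. For the 21 members that rose, the median difference of the neighbours ran from −0.19 to 0.45. MXI1 was at a difference of 0.49 with a neighbour median of 0.45, and 11 of its 20 neighbours rose. The other members that rose exceeded their neighbour medians by 0.30 (KDM4B) or more. Over all 18392 placed genes the 5th and 95th percentiles of the neighbour median were −0.24 and 0.23. PPP1R3C, with a neighbour median of 0.28 and 9 neighbours that rose, shares chromosome 10 with MXI1, DDIT4, BNIP3, P4HA1 and HIF1AN. EGLN1, at a difference of 0.07, had a neighbour median of −0.25, below the 5th percentile. Of its 20 neighbours 4 rose and 8 fell. The neighbours of DDIT4 had a median of −0.14 and those of BNIP3 one of −0.07. Of the 21 members that rose, 6 had 5 or more neighbours that rose, MXI1 among them. ARNT, HIF1AN and BHLHE41 each had 6 of 20 neighbours that rose, and 1, 0 and 1 that fell. Over all genes, limma called 14.8% higher and 14.8% lower. The part of neighbouring genes in the rise of these members was not tested.

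**Figure D3:**
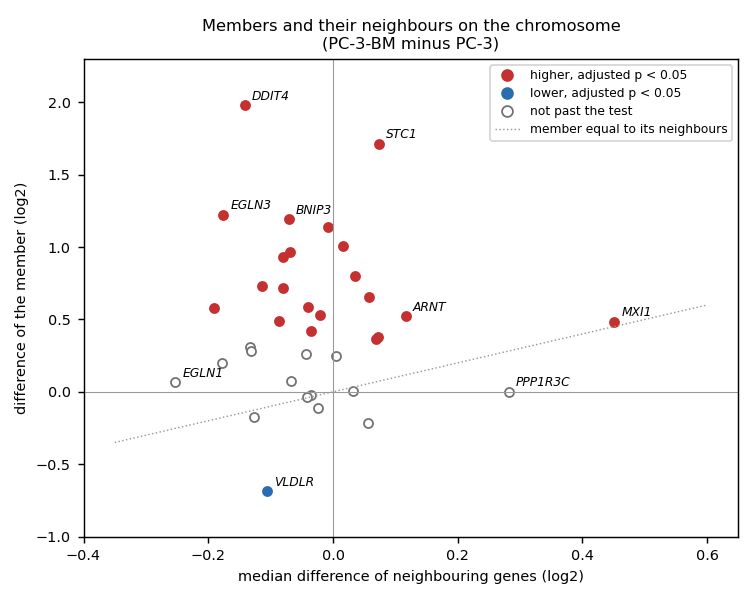
Difference of each measured member (log2, vertical axis) against the median difference of up to 10 measured genes on each side of it (log2, horizontal axis), PC-3-BM minus PC-3. Points are members, red called higher, blue called lower, open grey not called, and the dotted line marks equality. MXI1 lies close to that line at 0.49 against 0.45, and DDIT4 lies far above it at 1.98 against −0.14.

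Other genes of the pathway were counted from lists of related genes. Of 15 measured genes of HIF turnover and coactivation, 2 rose and 3 fell, against 14.8% of all genes in each direction, with a median difference of −0.10. At an unadjusted p below 0.05 in limma, 4 of the 15 were higher and 6 lower, against 20.3% and 23.2% of all genes. CITED2, which competes with HIF for its coactivator and is induced by it, rose 1.79-fold (log2 difference 0.84, SE 0.08), OS9 rose by 0.41 (SE 0.08), and ELOC, the elongin C of the VHL ligase, fell by 0.44 (log2 difference −0.44, SE 0.07). Of 19 further hypoxia targets outside glycolysis 10 rose and 3 fell, with a median of 0.35. The collagen cross-linker LOX, the chemokine receptor CXCR4 and the sterol regulator INSIG2 were at 1.91, 1.76 and 1.70. The 3 that fell, named after their values were seen, were ID2, IGFBP3 and TGFB3, at −1.60, −1.46 and −0.95. Of 20 glycolysis genes known as hypoxia targets 11 rose and 0 fell in limma (16 higher and 1 lower at an unadjusted p below 0.05), with a median of 0.27. At that unadjusted p, 20.3% of all genes were higher and 23.2% lower. The glycolysis list was led by ENO2 (1.97), PDK3 (1.76) and SLC2A1 (1.35).

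Genes of other stress programmes moved as well. DDIT4, STC2, NDRG1, ERO1A and VLDLR are also known to respond to the integrated stress response or to stress of the endoplasmic reticulum. Of 20 genes of these responses 14 rose and 0 fell in limma (16 higher and 0 lower at an unadjusted p below 0.05), with a median difference of 0.63. Over all genes, limma called 14.8% higher and 14.8% lower, and at that unadjusted p 20.3% were higher and 23.2% lower. VEGFA stood in this list and in that of further hypoxia targets, and rose by 0.89. The stress list was led by DNAJB9 (difference 1.34, SE 0.13), CHAC1 (1.32, SE 0.07) and HERPUD1 (1.22, SE 0.10). Of 12 proliferation genes 0 rose and 7 fell in limma (1 higher and 8 lower at an unadjusted p below 0.05), with a median of −0.48, and MCM4, PCNA and MCM2 were at −1.23, −1.15 and −0.77. The mean log2 level of the stress list was 9.47 and 9.52 on the PC-3 arrays and 10.20 and 10.06 on the PC-3-BM arrays, and that of the proliferation list was 9.28 and 9.36 against 8.77 and 8.92. The part of either programme in the values of the hypoxia genes was not tested.

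**Figure D4:**
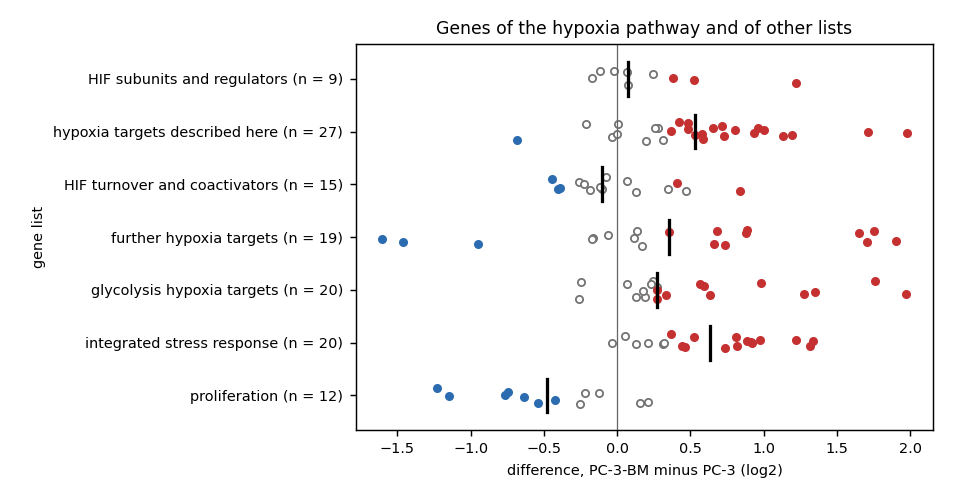
Differences PC-3-BM minus PC-3 (log2, horizontal axis) of the genes in 7 lists (vertical axis). Points are genes, red called higher, blue called lower, open grey not called, spread vertically only for legibility, and black bars are list medians. The bar of the 27 targets lies at 0.53, that of the 9 subunits and regulators at 0.07, that of the stress response list at 0.63 and that of the proliferation list at −0.48.

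The 4 arrays separated by line, with Pearson's r across probe sets of 0.997 and 0.996 within the lines and 0.983 to 0.985 between them, and medians from 6.66 to 6.72. Probe sets of the epithelial keratins KRT8 and KRT18 and of vimentin were bright, with line means from 8.94 to 11.95, whereas E-cadherin was near the lower quartile, at 5.02 in both lines. Of 6 measured markers of prostate epithelium and PC-3, KRT8, EPCAM and KRT18 fell and the others did not pass, and their mean log2 level was 8.58 and 8.53 in PC-3 against 7.94 and 7.98 in PC-3-BM. Of 10 measured blood cell markers 1 rose, CD68, which was bright, at 10.66 in PC-3 and 11.38 in PC-3-BM. Other markers are named here for their levels. PTPRC, LYZ and CD3E were below the lower quartile in both lines. HBB was below that quartile in PC-3-BM (4.88) and close to it in PC-3 (5.02). TYROBP, at 7.51 and 7.49, and CD14, at 6.36 and 6.30, were above it. The mean level of the blood cell list was from 5.92 to 5.96 over the 4 arrays. Of 7 endothelial markers PECAM1 and ENG rose, and of 9 markers of osteoblasts and stroma RUNX2, COL1A1 and LUM rose, LUM at levels below the lower quartile in both lines (3.56 and 4.10). The endothelial marker KDR did not pass but was bright, at 10.87 in PC-3 and 10.71 in PC-3-BM. The mean level of the endothelial list was 6.81 to 6.82 in PC-3 and 6.86 to 6.87 in PC-3-BM, and that of the osteoblast and stroma list was 6.09 to 6.10 and 6.30 to 6.34. Over all genes, limma called 14.8% higher and 14.8% lower. The part of these markers in the values of the hypoxia genes was not tested.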

How the data were processed

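RNA of PC-3 and PC-3-BM (2 arrays each) was hybridised to Affymetrix Human Gene 1.0 ST arrays. The authors background-corrected, normalised and summarised the probe intensities by RMA and deposited log2 values for 33297 probe sets, in which, by the submitters' processing notes, R 3.2 and limma 3.24 were used. RMA presumes that most genes keep their level and gives no detection call, so values below the lower quartile (5.02) were marked as dim. Arrays carry no read depth, and their number limits the precision. The platform annotation gave exactly 1 symbol to 19460 probe sets, several to 1754 and none to 12083. The member list, the other lists and the markers were chosen with earlier results of these data known.

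Differences were PC-3-BM minus PC-3, from limma 3.58.1 (lmFit and eBayes, R 4.3.3) on all 4 arrays without covariates, after the study's methods, with p-values adjusted over all probe sets by Benjamini-Hochberg. The model had 2 residual and 2.88 prior degrees of freedom, and it was checked on simulated data. With 2 arrays against 2, an exact two-sided permutation test of 1 gene cannot go below p = 0.333. Every measured member was named, and of each other list at most the 3 genes with the largest absolute difference past the test, with exceptions marked in the text. Same-numbered arrays did not deviate together (correlation of deviations −0.02), so array numbers were not treated as pairs. Promoter windows were those of RefSeq (GRCh38.p14), and neighbours followed RefSeq order. Alternatives were median centring, quantile normalisation, brightness filters at 5 and 6, other probe set choices, a variance trend, an array-number block, stricter thresholds and leaving out each array.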

Additional observations from a re-analysis of the deposited data

How the results depend on the processing

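Over 462 values of the members under the alternatives, 374 kept their direction and their side of the threshold. No member had more than 1 one-symbol probe set. The block, brightness filters, probe set choices, variance trend and stricter thresholds therefore left every member's difference as it was. Direction could turn only under median centring, quantile normalisation or without an array. With the array number as a replicate block, 18 targets rose, 1 fell, and 3 subunits and regulators rose, out of 6473 probe sets called against 7717, and no member lost its call. Without 1 array, the calls ranged from 2238 to 3854 probe sets, 11 to 14 targets higher, 0 to 1 lower, 0 to 2 subunits and regulators higher and 0 to 0 lower. At the thresholds of the study's methods 17 probe sets passed, fewer than the paper listed, with 0 targets higher, 0 lower and 0 subunits and regulators higher. Calls of lower targets rose to 2, with CA12, when 1-symbol probe sets were tested, when a gene's probe sets were averaged and with a variance trend. Signs turned for 5 members with differences near 0. Without 1 array, EGLN1 ranged from −0.0345 to 0.169, HIF1A from −0.0773 to 0.0299, KDM4C from −0.0679 to 0.00183, PPP1R3C from −0.0815 to 0.0856 and RORA from −0.0424 to 0.0574. Median centring gave 0.0112 for HIF1A and 0.00185 for KDM4C, and quantile normalisation gave 0.0101 for HIF1A, −0.0158 for PPP1R3C and −0.000678 for RORA. The cause was not tested. EPAS1, ANKRD37, WSB1, PLOD2 and CA12 also passed when 1-symbol probe sets were tested, when they were averaged and with the brightness filter at 6, EPAS1, ANKRD37 and WSB1 with the filter at 5, and all but ANKRD37 with the variance trend. Under these settings 20 to 21 targets and 4 subunits and regulators rose. The settings left each gene's difference unchanged and altered only the variance estimate and the adjustment of p-values, so these passes are not independent of each other. Signal over background was not measured for dim genes. Median centring moved the median of all probe sets by 0.03. Leaving out an array left its line with 1 array, which was assumed to vary like the other line.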
